A study of Mus musculus with 7 samples.

Results

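The lysosome and autophagy genes considered are 41 mouse genes that were picked by name. They comprise the MiT/TFE transcription factors, lysosomal membrane proteins, cathepsins, glycosidases and lipid handling proteins, autophagosome formation factors, the LC3 and GABARAP proteins and autophagy receptors. All 41 symbols were found among the 26607 genes listed in each library, and all were above 0 in at least 1 library, as were 19144 of the listed genes. In 39 of them the mean over all libraries was at least 1 CPM (the reads on a gene scaled to the library's total over all listed genes), and the cathepsins Ctsk and Ctss were below it.

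RNA-seq of poly(A) RNA was performed on C2C12 myotubes, that is, fused cells of a mouse myoblast line. Unstimulated control myotubes (n = 3, replicates 1, 3 and 4) were compared with myotubes that received electrical pulse stimulation (EPS, n = 4, replicates 1 to 4), an in vitro model in which pulses make the myotubes contract for a day. The labels name no other agent or genotype for either group, and the question was how contraction alters the muscle transcriptome. Neither the labels nor the methods say whether the libraries come from separate cultures, so P-values measure the spread between these libraries, which may be technical.

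Lysosomes are acidic vesicles in which hydrolases break down protein, glycan and lipid. In macroautophagy, the ULK1 and Beclin 1 complexes start a membrane sac, lipidated LC3 and GABARAP proteins line it, receptors tie cargo to it, and the closed autophagosome fuses with lysosomes. TFEB, TFE3 and MITF are basic helix-loop-helix factors that bind the CLEAR element, an E-box with the core CACGTG, in the promoters of many lysosomal genes, and they are held in the cytoplasm when mTORC1 is active. In skeletal muscle this pathway is known for clearing worn mitochondria and for its role in atrophy and in Pompe disease, the loss of acid alpha-glucosidase (Gaa). Transcripts were measured here, not lysosomal activity or the flux of cargo through autophagosomes.

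Of the 41 genes, 1 rose after EPS and no member fell at an unadjusted limma P under 0.01. The gene that rose was Bnip3, a mitophagy receptor of the outer mitochondrial membrane, with a log2 fold change of 1.54 on the log2(CPM + 1) scale. This share, 2.44% of the members, stood beside 4.17% of all genes tested (2.83% higher and 1.34% lower). Bnip3 was also the single member past P under 0.01 with more than a 2-fold change, a rule that 1.41% of all genes passed (0.966% higher and 0.439% lower). With Benjamini-Hochberg adjustment over all genes, limma gave 0 members under 0.05 against 0.141% of all genes. On whole reads recovered from the CPM, edgeR's quasi-likelihood test gave 1 (Bnip3) beside 1.51% of all genes, edgeR's exact test 1 (Bnip3) beside 2.37%, and DESeq2 2 (Bnip3 and Ctsl) beside 3.39% of the genes to which it gave an adjusted p. At an unadjusted P under 0.05, 5 members were higher in EPS (Bnip3, Bnip3l, Ctsl, Tfe3, Ulk1) and 1 was lower (Ctsk), so 14.6% of the members passed beside 11.6% of all genes (8.4% higher and 3.21% lower). The CPM of the groups did not overlap in 4 members, with EPS above control in Ctsl, Tfe3 and Gusb and below it in Ctsk, which is 9.76% of the members beside 10.6% of all genes (7.76% with EPS above and 2.85% below).

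The fold changes leaned slightly to the higher side, as did those of the transcriptome. The log2 fold change was above 0 in 26 members and below 0 in 15, with a median of 0.09, whereas the median of all genes with a mean of at least 1 CPM was 0.10. After scaling the libraries by median-of-ratios the median of those genes moved to -0.0048 and that of the members to -0.02, with 19 members higher and 22 lower. The forest plot of the members shows that all 95% intervals except those of Tfe3, Ctsk, Ctsl, Ulk1, Bnip3 and Bnip3l span 0.

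**Figure D1:**
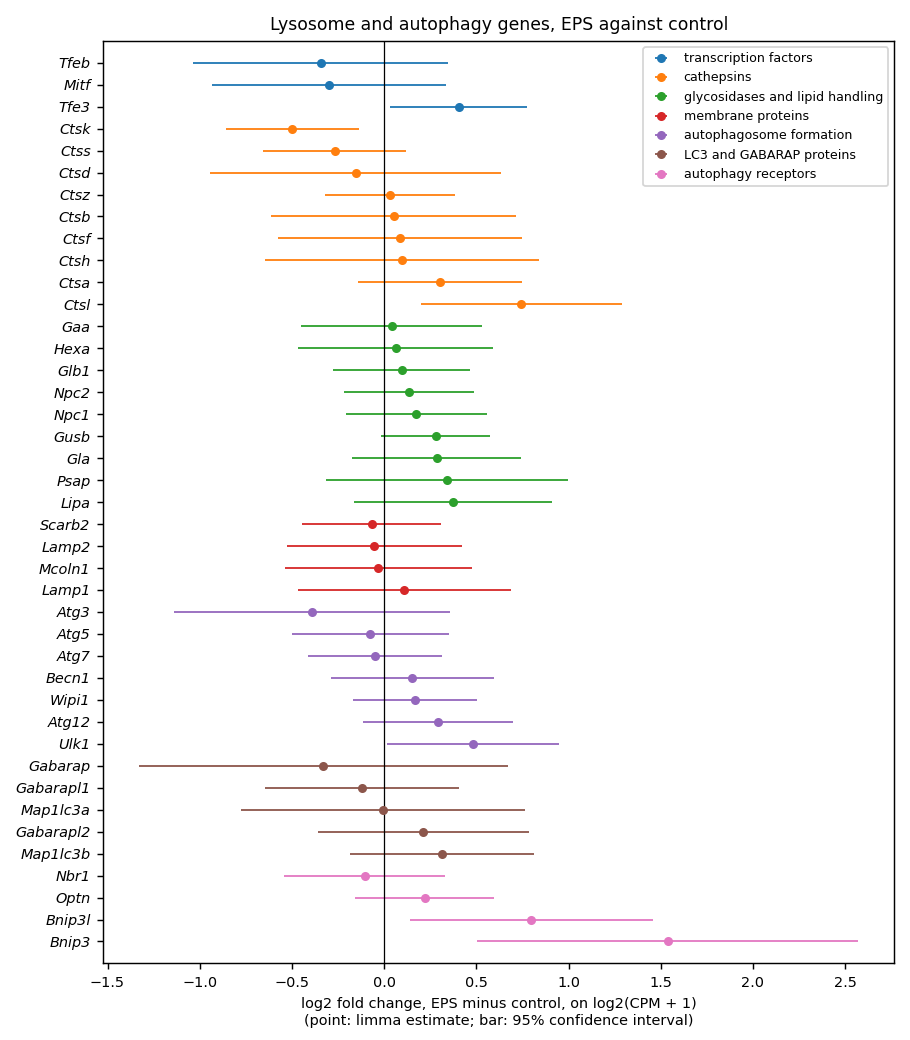
Log2 fold change (EPS minus control, log2(CPM + 1) scale) of each of the 41 members, grouped by role, with the 95% confidence interval of the limma fit as a bar. Bnip3 lies farthest to the right at 1.54, Ctsk farthest to the left at -0.50, and the median of the members is 0.09.

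The libraries held 16616917 to 22120641 reads on listed genes, so that 3 reads correspond to 0.136 to 0.181 CPM. The library of control replicate 4 stood apart. It had 359 genes with 1 to 5 reads where the other 6 libraries had 2670 to 3181. It was the highest of all 7 libraries in 13 members and the lowest in 10. EPS replicate 2 was the highest in 18 members and the lowest in 0, and control replicate 3 was the lowest in 12.

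Promoters of the members were read to show where the CLEAR core lies. The RefSeq table (GRCm38.p6) held 42 promoters for 34 of the 41 genes, each running from 250 bases before to 50 bases after the transcription start. The hexamer CACGTG, which reads alike on both strands, was present in 13 of the 42 (31.0%) and in 7.15% of all 32851 promoters of that table. The 8-base form TCACGTGA, which contains the hexamer, was present in 5 (11.9%) and in 0.974% of all promoters. The 10-base form, which adds G before and C after it, was present in 0 of the 42 and in 0.326% of all. An unrelated motif read on both strands, TGACNNNGC, the core of the antioxidant response element, was present in 7 (16.7%) and in 12.4% of all. Promoters of 1 gene can overlap, and these shares are given as a description. The following 4 promoters are shown because Bnip3 and Ctsl are the members with the hexamer that passed P under 0.05, whereas Lamp1, with the hexamer 4 times, and Ctsd, with it 2 times, did not pass. Capitals mark CACGTG and each promoter is written 5′ to 3′ along its gene, Bnip3 at chr7:138909457-138909756 (minus strand), Ctsl at chr13:64370471-64370770 (minus strand), Lamp1 at chr8:13158911-13159210 (plus strand) and Ctsd at chr7:142387778-142388077 (minus strand).
Bnip3: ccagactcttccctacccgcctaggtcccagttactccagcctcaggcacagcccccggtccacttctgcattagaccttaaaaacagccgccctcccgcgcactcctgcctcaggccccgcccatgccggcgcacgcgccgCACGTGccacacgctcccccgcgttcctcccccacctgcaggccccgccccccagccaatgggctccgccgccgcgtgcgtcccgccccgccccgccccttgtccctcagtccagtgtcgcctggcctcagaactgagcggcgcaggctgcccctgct
Ctsl: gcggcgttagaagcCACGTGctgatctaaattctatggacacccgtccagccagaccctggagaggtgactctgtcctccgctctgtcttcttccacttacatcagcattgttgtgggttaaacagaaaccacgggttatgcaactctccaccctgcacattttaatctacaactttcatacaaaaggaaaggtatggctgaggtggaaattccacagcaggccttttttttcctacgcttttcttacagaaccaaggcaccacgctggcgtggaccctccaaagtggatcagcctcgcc
Lamp1: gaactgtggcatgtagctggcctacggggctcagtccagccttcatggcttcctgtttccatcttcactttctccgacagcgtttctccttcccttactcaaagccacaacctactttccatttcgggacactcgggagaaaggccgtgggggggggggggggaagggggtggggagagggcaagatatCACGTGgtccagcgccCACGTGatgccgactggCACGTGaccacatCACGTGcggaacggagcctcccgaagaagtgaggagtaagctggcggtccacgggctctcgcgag
Ctsd: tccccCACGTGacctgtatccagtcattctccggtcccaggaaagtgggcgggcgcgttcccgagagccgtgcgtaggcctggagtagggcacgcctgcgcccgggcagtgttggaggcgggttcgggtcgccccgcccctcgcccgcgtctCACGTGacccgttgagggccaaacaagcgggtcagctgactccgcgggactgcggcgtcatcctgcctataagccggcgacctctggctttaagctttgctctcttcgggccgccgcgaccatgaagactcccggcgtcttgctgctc

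The hexamer began at position -108 from the start in Bnip3 and at -236 in Ctsl. It began at -61, -45, -28 and -15 in Lamp1, the major glycoprotein of the lysosomal membrane, and at -245 and -98 in Ctsd, the main aspartic protease of the lysosome. The 13 genes with the hexamer had a median log2 fold change of 0.09, ranging from -0.39 to 1.54, with 8 of them higher in EPS and 2 past P under 0.05. The 21 genes whose promoters lacked it had a median of 0.06, ranging from -0.50 to 0.48, with 12 higher and 3 past P under 0.05 (Ctsk, Tfe3 and Ulk1). Over all genes 11.6% passed P under 0.05, and no test was made between these groups of genes.

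Among the transcription factors, Tfe3 was higher after EPS at P under 0.05 and Tfeb and Mitf did not pass. Tfe3 (ENSMUSG00000000134.17, chromosome X, 7762560 to 7775202, plus strand of GRCm38) had 44.2, 41.9 and 37.0 CPM in control replicates 1, 3 and 4, and 58.9, 47.7, 48.1 and 65.1 CPM in EPS replicates 1 to 4. All 4 EPS libraries lay above all 3 control libraries. Its log2 fold change was 0.40 (SE 0.16, limma P = 0.0362, adjusted p = 0.383), and permuting the libraries in an exact two-sided test on mean CPM gave p = 0.0857. Under the 3 other scalings the value was 0.29 to 0.30 and the limma P 0.105 to 0.113. Tfe3 missed P under 0.05 in the 3 count tests (0.31 to 0.42), with a minimum mean of 1 CPM, and without control replicate 3 (0.42), control replicate 4 (0.33), EPS replicate 1 (0.37) or EPS replicate 4 (0.32).

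Tfeb, the family member most studied as the regulator of lysosome number, had 19.6, 18.3 and 45.3 CPM in control replicates 1, 3 and 4. In EPS replicates 1 to 4 it had 16.9, 20.6, 22.1 and 20.0 CPM. Control replicate 4 was more than any other library and the remaining 6 libraries overlapped. Its log2 fold change was -0.34 (SE 0.30, limma, adjusted p = 0.718) with all libraries and 0.06 without control replicate 4. Tfeb had -0.59 in edgeR's quasi-likelihood test, where it passed an unadjusted P under 0.05, and -0.60 in DESeq2, where it did not. Mitf, known as the melanocyte and osteoclast factor of the family, had 8.57, 7.04 and 11.6 CPM in control and 6.94, 8.96, 7.99 and 4.89 CPM in EPS. The groups overlapped, with a log2 fold change of -0.30 (SE 0.28, limma, adjusted p = 0.733). For Mitf the value was -0.13 without control replicate 4 and -0.45 without control replicate 3.

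**Figure D2:**
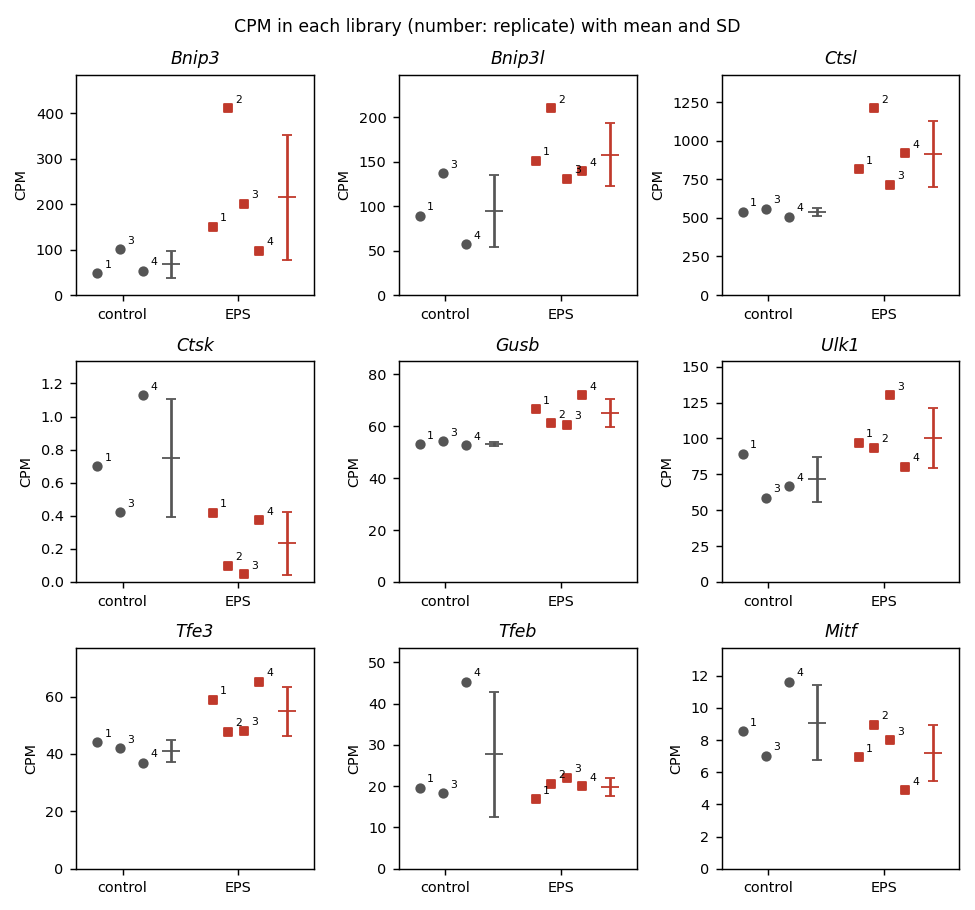
CPM of the 9 members with values given for every library, 1 panel per gene with its own linear axis from 0. Each point is a library labelled with its replicate number, and the bars give the mean and SD of control (n = 3) and EPS (n = 4). The points of Ctsl, Tfe3 and Gusb in EPS all lie above the control points, those of Ctsk all lie below, and in Bnip3 EPS replicate 4 (97.8 CPM) lies below control replicate 3 (101 CPM).

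None of the 4 membrane proteins passed P under 0.05, and their fold changes spanned less than those of any other role. The log2 fold change was 0.11 for Lamp1, -0.05 for Lamp2 (SE 0.21), the receptor of chaperone-mediated autophagy, -0.03 for Mcoln1, the lysosomal calcium channel that TFEB targets, and -0.07 for Scarb2, the carrier of beta-glucocerebrosidase. Lamp1 ranged from 805 to 1052 CPM in control and from 807 to 1227 CPM in EPS. Lamp2 ranged from 479.7 to 568 CPM in control and from 427 to 653 CPM in EPS, so the groups overlapped in both genes. Lamp1 moved to -0.0072 without EPS replicate 2, and Mcoln1 moved to 0.22 without control replicate 4.

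Of the 9 cathepsins, Ctsl was higher and Ctsk lower at P under 0.05, and the other 7 did not pass. Ctsl (ENSMUSG00000021477.9, chromosome 13, 64359337 to 64370890, minus strand), a cysteine protease with a broad range of lysosomal substrates, had 541, 559.7 and 508 CPM in control replicates 1, 3 and 4 and 815, 1212, 715 and 919 CPM in EPS replicates 1 to 4. All EPS libraries lay above all control libraries, and the control libraries were close to each other. The mean was 536 ± 26.3 CPM in control (SD, n = 3) and 915 ± 215 in EPS (SD, n = 4). It had a log2 fold change of 0.74 (SE 0.24, limma P = 0.0131, adjusted p = 0.267), and the exact permutation test gave p = 0.0571. DESeq2 on whole reads gave Ctsl an adjusted p of 0.0486 and edgeR's quasi-likelihood test gave 0.245. With each library left out in turn its value lay between 0.60 and 0.85. In the GENCODE M21 models 26.8% of the exon bases of Ctsl are shared with the antisense gene Gm47123, and whether reads were counted by strand is not stated, so reads of these genes may not be separable.

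Ctsk, a collagenolytic cathepsin known from osteoclasts (ENSMUSG00000028111.4, chromosome 3, 95499256 to 95509362, plus strand), was near the limit of detection. The reads on it numbered 12, 7 and 25 in control (replicates 1, 3 and 4) but 9, 2, 1 and 7 in EPS (replicates 1 to 4). In CPM every EPS library lay below every control library, at 0.419, 0.0974, 0.0457 and 0.372 against 0.700, 0.421 and 1.13. On the log2 scale this was -0.50 (SE 0.16, limma P = 0.0127, adjusted p = 0.262), and the exact permutation test gave p = 0.0286, the smallest that 35 splits can give. Ctsk passed P under 0.01 when control replicate 3 (-0.64) or EPS replicate 1 (-0.57) was left out. The added pseudocount of 1 CPM exceeds most of these values, so the fold change on this scale understates the difference. It was -1.47 with a pseudocount of 0.1 CPM, -1.78 in edgeR's quasi-likelihood test, -1.68 in edgeR's exact test and -1.82 in DESeq2. Ctss, a cathepsin of antigen-presenting cells, had 17 reads in control replicate 4 and 0 or 1 read in each other library. In limma the value was -0.27 (SE 0.17) with all libraries and -0.0071 without control replicate 4. Ctss passed an unadjusted P under 0.05 in all 3 count tests and in limma without control replicate 1.

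The remaining cathepsins overlapped between the groups. Ctsd, the most abundant member, had 1275, 1146 and 2358 CPM in control replicates 1, 3 and 4 and 1103 to 1489 CPM in EPS. Its log2 fold change was -0.16 with all libraries and 0.17 without control replicate 4. Ctsb, a cysteine protease that also acts as a carboxypeptidase, had a log2 fold change of 0.05 and ranged from 634 to 790.4 CPM in control and from 486 to 1107 CPM in EPS. Ctsa, which protects beta-galactosidase and neuraminidase, had 0.30 (SE 0.20), and Ctsf, Ctsh and Ctsz had 0.09, 0.10 and 0.03. Without EPS replicate 2 the values of Ctsb, Ctsf and Ctsh turned to -0.15, -0.09 and -0.11. The exons of Ctsd share 34.4% of their bases with the same-strand model Gm49369.

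Expressed as a share of the summed CPM of all 9 cathepsins, Ctsl made up 19.6%, 21.1% and 12.6% in control replicates 1, 3 and 4. In EPS replicates 1 to 4 it made up 30.1%, 28.8%, 21.8% and 27.2%. Ctsd made up 46.2%, 43.3% and 58.7% in control and 40.8%, 35.3%, 44.5% and 41.7% in EPS. The share of Ctsl was therefore higher in every EPS library than in every control library, whereas the shares of Ctsd overlapped. This measure was chosen after the values had been seen and no test was made on it.

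**Figure D3:**
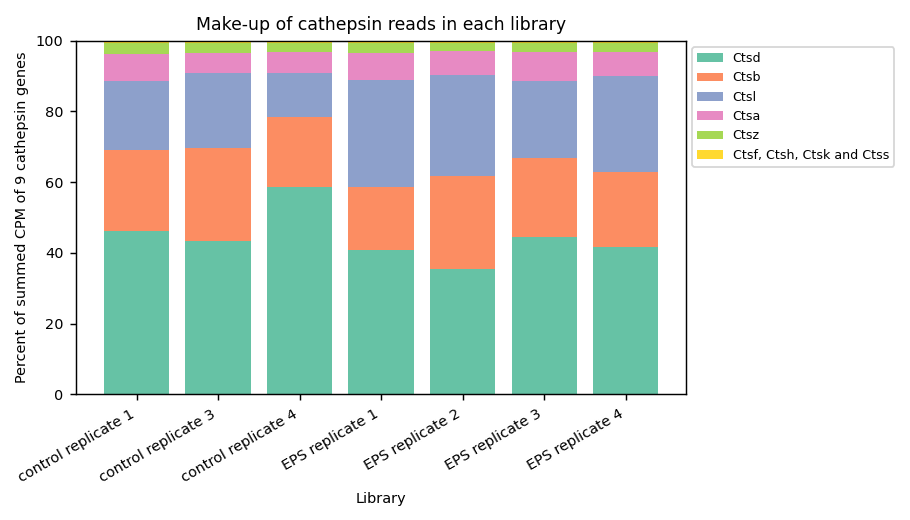
Percent of the summed cathepsin CPM contributed by Ctsd, Ctsb, Ctsl, Ctsa, Ctsz and the other 4 cathepsins together in each of the 7 libraries, as stacked bars from 0 to 100. The Ctsl segment spans 12.6% to 21.1% in control and 21.8% to 30.1% in EPS, and the Ctsd segment is tallest in control replicate 4 at 58.7%.

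All 9 glycosidase and lipid handling genes had log2 fold changes above 0, between 0.04 and 0.37, and none passed an unadjusted limma P under 0.05. Values above 0 were also found in 12123 of the 19144 genes tested and in 7798 of the 12256 with a mean of at least 1 CPM. With the libraries scaled by median-of-ratios, Gaa, Glb1 and Hexa had values below 0. Gusb, beta-glucuronidase (ENSMUSG00000025534.17, chromosome 5, 129989011 to 130003049, minus strand), had 53.0, 54.2 and 52.8 CPM in control replicates 1, 3 and 4, and 66.6, 61.2, 60.7 and 72.1 CPM in EPS replicates 1 to 4. The groups did not overlap and the control libraries differed by less than 2 CPM. Its log2 fold change was 0.28 (SE 0.13, limma P = 0.0599, adjusted p = 0.455), and the exact permutation test gave p = 0.0286, the smallest possible. Gusb was given in full because its groups did not overlap, as in 10.6% of all genes. That separation itself tends to give a low permutation p, so this p adds no separate support. When genes at 0 in all libraries were kept, Gusb passed P under 0.01 in limma, with an adjusted p of 0.355. In every other fit it missed P under 0.05. Its value was 0.17 to 0.19 under the other scalings, with limma P from 0.160 to 0.230. The 3 count tests gave 0.18 to 0.29, with unadjusted P from 0.171 to 0.359. With 1 library left out, limma P was 0.0643 to 0.154.

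Lipa, the acid lipase that releases cholesterol from its esters, had 0.37 (SE 0.24). Its value was 0.19 without control replicate 4 and 0.62 without control replicate 3, where it passed an unadjusted P under 0.05. Psap, the precursor of the saposins that aid sphingolipid breakdown, had 0.34 (SE 0.29), with 783 to 999.9 CPM in control and 749.6 to 1368 CPM in EPS. Values were 0.29 for Gla, alpha-galactosidase A, 0.17 for Npc1 and 0.13 for Npc2, which together export cholesterol from the lysosome. They were 0.09 for Glb1, beta-galactosidase, 0.06 for Hexa, the alpha subunit of hexosaminidase A, and 0.04 for Gaa. Gaa overlapped fully, at 108 to 141 CPM in control and 97.8 to 167 CPM in EPS. Hexa was 0.29 without control replicate 4 and -0.19 without control replicate 3, and Gaa was -0.02 without EPS replicate 2. Npc1 was 0.03 without control replicate 4 and 0.26 without control replicate 1.

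Of the 7 autophagosome formation genes, Ulk1 was higher at P under 0.05 and the other 6 did not pass. Ulk1, the kinase that starts autophagy (ENSMUSG00000029512.11, chromosome 5, 110784488 to 110810097, minus strand), had 89.2, 58.8 and 66.5 CPM in control replicates 1, 3 and 4 and 97.1, 93.5, 130.2 and 80.4 CPM in EPS replicates 1 to 4. EPS replicate 4 was below control replicate 1, so the groups overlapped. For Ulk1 the log2 fold change was 0.48 (SE 0.21, limma P = 0.0449, adjusted p = 0.415), and the exact permutation test gave p = 0.114. Ulk1 missed P under 0.05 under the 3 other scalings (0.37 to 0.41), in edgeR's quasi-likelihood test (0.39), in DESeq2 (0.38) and when genes at 0 in all libraries were kept. It also missed it without control replicate 3 (0.35), control replicate 4 (0.44), EPS replicate 1 (0.49), EPS replicate 2 (0.51) or EPS replicate 3 (0.35).

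Becn1, the scaffold of the lipid kinase complex, had 0.15, and Wipi1, which binds the lipid made by that complex, had 0.17. Among the conjugation enzymes and their substrates, Atg12 had 0.29 (SE 0.18), Atg5 had -0.08, Atg7 had -0.05 and Atg3 had -0.39 (SE 0.33). Atg3, the E2-like enzyme for LC3, had 55.6, 59.3 and 157 CPM in control and 56.1 to 68.6 CPM in EPS. Without control replicate 4 the value was 0.09 for Atg3, 0.08 for Atg7 and -0.04 for Becn1. Atg3 passed an unadjusted P under 0.05 in DESeq2 (-0.69) and in the quasi-likelihood test of edgeR (-0.68). The exons of Becn1 share 43.9% of their bases with Cntd1 on the other strand.

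The LC3 and GABARAP proteins showed no member past P under 0.05, and the direction of 3 of the 5 depended on control replicate 4. Map1lc3a had 141, 152 and 394.6 CPM in control replicates 1, 3 and 4 and 180.1 to 250.6 CPM in EPS. All EPS libraries lay between the first 2 control values and control replicate 4. Its log2 fold change was -0.0068 with all libraries and 0.47 without control replicate 4, where it passed an unadjusted P under 0.05. The sign of Map1lc3a turned in 4 of the fits that left out 1 library. Gabarap had 43.3, 34.96 and 145 CPM in control and 36.6 to 63.2 CPM in EPS, with -0.33 (SE 0.44) for all libraries and 0.30 without control replicate 4, and it passed P under 0.05 in edgeR's quasi-likelihood test (-0.73). Gabarapl1 had -0.12 and 0.15 in the same order. Map1lc3b and Gabarapl2 had 0.31 (SE 0.22) and 0.21 (SE 0.25), and in both EPS replicate 2 was the highest library. Without EPS replicate 2 the values were 0.15 for Map1lc3b and 0.02 for Gabarapl2. These genes are paralogs, and how reads that map to several genes were treated is not stated. Per kilobase of all annotated exons merged, Map1lc3a ranked highest of the 5, with 182 CPM per kb over all libraries. Gabarap had 32.5, Map1lc3b 18.5, Gabarapl1 18.3 and Gabarapl2 17.1. The merged length can exceed that of the transcript, and it was 7517 bases for Map1lc3b and 1181 for Map1lc3a. In CPM, Map1lc3b had a mean of 121 in control and 152 in EPS, against 229 and 205 for Map1lc3a.

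Of the 4 autophagy receptors, Bnip3 rose, Bnip3l was higher at P under 0.05, and Nbr1 and Optn did not pass. Bnip3 (ENSMUSG00000078566.8, chromosome 7, 138890836 to 138909519, minus strand of GRCm38) had 47.6, 101 and 53.6 CPM in control replicates 1, 3 and 4. In EPS replicates 1 to 4 it had 150.4, 411, 201 and 97.8 CPM. EPS replicate 2 was the highest library and EPS replicate 4 lay below control replicate 3, so the groups overlapped. The mean was 67.4 ± 29.3 CPM in control (SD, n = 3) and 215 ± 137 in EPS (SD, n = 4). The log2 fold change was 1.54 (SE 0.46, 95% interval 0.50 to 2.57, limma P = 0.00853, adjusted p = 0.231), and the exact permutation test of the mean CPM gave p = 0.143.

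The call of Bnip3 depended on the model and the libraries. On whole reads, edgeR's quasi-likelihood test gave it an adjusted p of 0.0250, edgeR's exact test without TMM 0.0104 and DESeq2 0.00770. Under the other scalings limma gave 1.42 to 1.45, with P from 0.010 to 0.013. The limma P missed 0.01 when control replicate 1 (log2 fold change 1.33), control replicate 4 (1.41), EPS replicate 1 (1.64), EPS replicate 2 (1.16) or EPS replicate 3 (1.502) was left out. It stayed below 0.01 without control replicate 3 (1.87) and without EPS replicate 4 (1.85). The adjusted p of these limma fits ranged from 0.179 to 0.382. When genes at 0 in all libraries were kept, Bnip3 also missed P under 0.01 in limma (adjusted p = 0.549). The exons of Bnip3 share 22.3% of their bases with the antisense gene Gm45507.

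Bnip3l, also called NIX, the paralog of Bnip3 that removes mitochondria from maturing red blood cells (ENSMUSG00000022051.15, chromosome 14, 66985239 to 67008877, minus strand), had 89.1, 137 and 57.1 CPM in control replicates 1, 3 and 4. In EPS replicates 1 to 4 it had 151, 210.0, 131 and 139 CPM. EPS replicate 3 lay below control replicate 3, and the other 3 EPS libraries lay above all controls. For Bnip3l the log2 fold change was 0.80 (SE 0.29, limma P = 0.0229, adjusted p = 0.329), and the exact permutation test gave p = 0.0571. It was 0.48 (limma, adjusted p = 0.517) without control replicate 4 and 1.11 (limma, adjusted p = 0.156) without control replicate 3, where it passed an unadjusted P under 0.01. Bnip3l also missed P under 0.05 without EPS replicate 2 (0.65) and when genes at 0 in all libraries were kept. A transcribed processed pseudogene, Bnip3l-ps, is annotated, and its reads may not be separable from those of Bnip3l.

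The ubiquitin-binding receptors Nbr1 and Optn did not pass, at -0.11 (SE 0.19) and 0.22 (SE 0.17). Nbr1 ranged from 132 to 189.6 CPM in control and from 125 to 182 CPM in EPS. Optn ranged from 17.4 to 22.2 CPM in control and from 21.7 to 23.8 CPM in EPS.

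**Figure D4:**
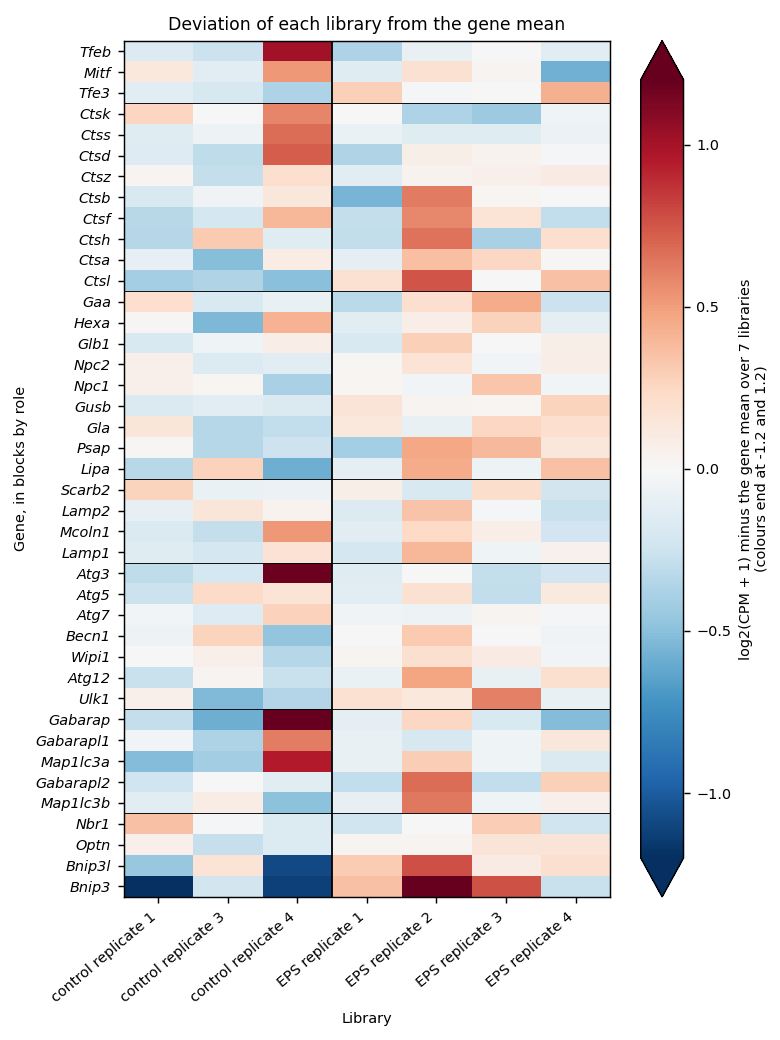
Heat map of log2(CPM + 1) minus the mean over the 7 libraries for each of the 41 members (rows, grouped by role) in each library (columns), with red above and blue below the mean and colours ending at -1.2 and 1.2. Control replicate 4 is the highest library in 13 members, among them Gabarap, Atg3, Map1lc3a, Tfeb and Ctsd, and EPS replicate 2 is the highest in 18. Control replicate 4 is also the lowest library in 10 members.

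Across libraries the members together took 7459, 7124 and 9094 CPM in control replicates 1, 3 and 4 and 7226, 10702, 8774 and 8356 CPM in EPS replicates 1 to 4. These sums overlapped, and control replicate 4 was the highest of its group as EPS replicate 2 was of its own. Control replicate 4 stood above the mean of the other control libraries by a ratio of 3.72 in Gabarap, 2.73 in Atg3, 2.69 in Map1lc3a, 2.39 in Tfeb and 1.95 in Ctsd. It stood below that mean in Bnip3l, with a ratio of 0.504, and in Becn1 and Lipa, both with 0.66. Without it, 33 members were higher in EPS and 8 lower, with a median log2 fold change of 0.16 beside 0.09 for all genes of at least 1 CPM. Without EPS replicate 2 the median was 0.01 beside 0.08 for those genes, with 21 members higher and 20 lower. Divided by the merged length of all annotated exons, Ctsd with 622, Psap with 371 and Lamp1 with 353 CPM per kb over all libraries ranked highest. This length can exceed that of the transcript, so the ranking depends on it. It was 6051 bases for Ctsb (122 CPM per kb) and 6489 for Ctsl (116 CPM per kb), against 2744 for Psap and 2675 for Lamp1. Lamp1 was above Psap in the control mean (337 against 318) and below it in the EPS mean (365 against 411). Ctss was the least abundant with 0.098.

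A further 136 genes of the pathway were examined in lists written by textbook function. Of these, 135 were above 0, and Rragb was listed at 0 in all libraries. Atg9a, the lipid scramblase whose vesicles seed the autophagosome, rose, and no gene of these lists fell at P under 0.01, which is 0.741% of the 135 beside 4.17% of all genes. It had 86.6, 82.5 and 84.4 CPM in control replicates 1, 3 and 4 and 109.8, 113, 128 and 109 CPM in EPS replicates 1 to 4, and the groups did not overlap. Its log2 fold change was 0.43 (SE 0.13, limma P = 0.00785, adjusted p = 0.228), and the exact permutation test gave p = 0.0286, the smallest possible. The P of Atg9a was above 0.01 in all fits that left out 1 library, from 0.0140 to 0.0283, and the other scalings gave 0.32 to 0.37. On whole reads, edgeR's quasi-likelihood test gave Atg9a 0.34 with an adjusted p of 0.571.

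At P under 0.05, 7 genes of the lists were higher and 1 lower, which is 5.93% of the 135 beside 11.6% of all genes. None of the 17 subunits of the proton pump and none of the 22 other membrane proteins passed. In the list of 33 genes headed other hydrolases, Gm2a was higher with 0.70 (SE 0.23). It encodes the activator of ganglioside breakdown, which is not itself a hydrolase. Ctsc, which activates granule proteases, was lower with -0.74 (SE 0.29). Of the 23 measured genes around mTORC1 and TFEB, Prkaa1 and Prkaa2, the catalytic subunits of the energy sensor AMPK, were higher with 0.38 and 0.56. Of the 40 other autophagy genes, Atg9a, Atg14, Wdr45 and Sqstm1 were higher. All of these apart from Atg9a were picked for mention after their values had been seen.

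Sqstm1 encodes p62, a receptor that is itself degraded by autophagy. It had 505, 604 and 687 CPM in control replicates 1, 3 and 4 and 799, 970.0, 841 and 1203 CPM in EPS replicates 1 to 4. The groups did not overlap, with a log2 fold change of 0.66 (SE 0.24, limma P = 0.0237, adjusted p = 0.331) and p = 0.0571 in the exact permutation test.

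The identity of the cells was checked with marker lists. All 10 myotube markers were measured, with summed levels of 10783 to 15707 CPM in control and 9011 to 11957 CPM in EPS, which overlapped. Of these, 8 were lower in EPS and 1, Actn2, fell at P under 0.01. The 8 markers of unfused or cycling myoblasts summed to 288 to 348 CPM in control and 364 to 944 CPM in EPS, which did not overlap. Of these, Mki67, Top2a, Ccnb1 and Cdk1 were higher and Id1 and Id3 lower at P under 0.05. The CPM of the groups overlapped in each of them except Id1, where every EPS library lay below every control library. Myf5 (log2 fold change 0.20, SE 0.34) and Pax7 (-0.12, SE 0.24) did not pass. Mki67 had the highest mean of the 8 in both groups, 108 CPM in control and 293 CPM in EPS. In bulk RNA, fewer cells of a type and less RNA per cell cannot be told apart, and the part of these shifts in the values of the lysosome and autophagy genes was not tested. The 7 macrophage markers summed to at most 2.17 CPM, with Adgre1 at 0 in all libraries. Reads on Csf1r numbered 0 to 3 in control and 5 to 13 in EPS, and it was higher at P under 0.05. The 5 adipocyte markers summed to 4.25 to 6.32 CPM in control and 5.71 to 12.6 CPM in EPS, nearly all of it Pparg, which overlapped between the groups (log2 fold change 0.57, SE 0.31). Plin1, Lep and Cidec were at 0 in all libraries, and Adipoq had 1 read in 1 library. The osteoclast markers Calcr and Dcstamp were at 0 in all libraries, and that list summed to at most 0.390 CPM.

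**Figure D5:**
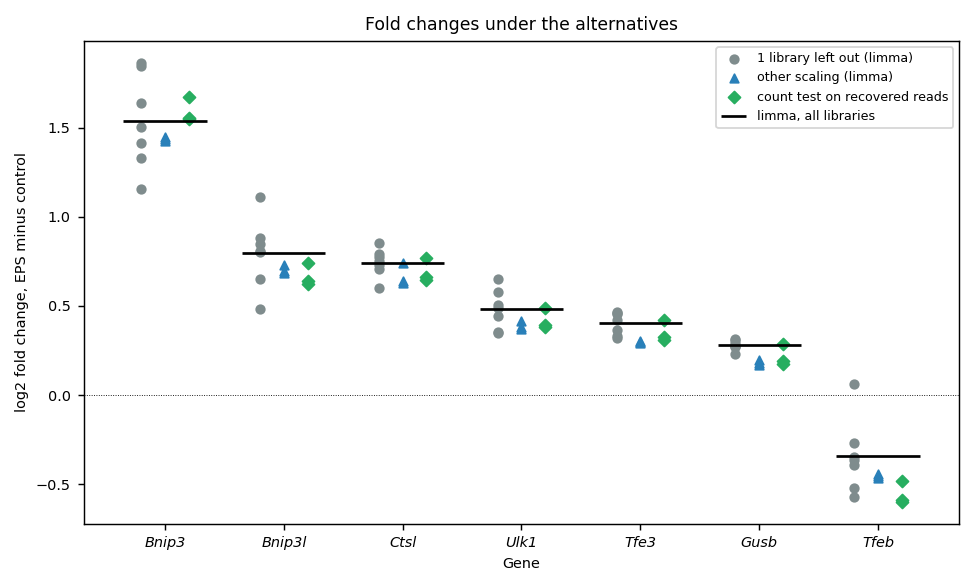
Log2 fold change (EPS minus control) of 7 members, with a line for the limma fit on all libraries and a point for each fit with 1 library left out, each other scaling and each count test on recovered reads. The points of Bnip3 lie between 1.16 and 1.87, those of Ctsl between 0.60 and 0.85 and those of Tfeb between -0.60 and 0.06.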

How the data were processed

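Poly(A) RNA from C2C12 myotubes (3 control and 4 EPS libraries) was sequenced as directional paired-end libraries. The submitters' processing notes name STAR 2.5.4b and GRCm38. The read counter, its annotation, its strand setting and its handling of multi-mapping reads are not given in the sources used here. The authors deposited CPM per gene and library. Every CPM was a whole multiple of the value of 1 read (100% whole within 0.05 reads), so whole reads were recovered for edgeR 4.0.16 and DESeq2 1.42.0 as alternatives. The deposited values carry no log2 transformation or quantile normalization.

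The 19144 genes above 0 in any library were analysed as log2(CPM + 1) with limma 3.58.1 in R 4.3.3 (mean-variance trend, no covariate), with Benjamini-Hochberg adjustment over all of them. "Rose" and "fell" denote an unadjusted P under 0.01. The exact two-sided permutation test used all 35 assignments of 3 and 4 libraries, and its smallest p is 0.0286. Groups came from the sample labels. Values per library were given for Tfeb, Tfe3, Mitf and each member with P under 0.05 or with groups that do not overlap. From the other pathway lists, genes past P under 0.01 were named by rule, and those past P under 0.05 were added after their values had been seen. The members and lists were chosen with earlier results of these data known. Exon lengths, positions and overlaps came from GENCODE M21 on GRCm38 and promoters from RefSeq. In 8 members over 10% of the exon bases are shared with another gene. Besides Becn1, Bnip3, Ctsd and Ctsl these are Gabarapl1 (28.3%), Ctsb (12.8%), Hexa (12.8%) and Ctsa (10.5%), each with a gene on the opposite strand. The fit was also run on simulated data, and no conclusion is drawn from that run. As alternatives, the pseudocount was set to 0.1 or 0.5, the filter was raised to a mean of 1 CPM or dropped, and further fits used 3 other scalings, 3 count tests, a replicate block, a P threshold of 0.001 and leaving out each library.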

Additional observations from a re-analysis of the deposited data

Results flagged for a closer look

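In each member, the EPS libraries were screened for a value far from the other 3 with Dixon's criterion (gap over range, 95% critical value), and 2 of 41 members met it, where chance gives about 1 in 20. Npc1, the cholesterol exporter of the lysosomal membrane, had 89.8 CPM in EPS replicate 3 against 69.1 to 72.3 CPM in the other EPS libraries. Becn1 had 95.7 CPM in EPS replicate 2 against 74.9 to 76.6 CPM in the others, while control replicate 3 had 93.0 CPM. Neither gene passed the limma test between the groups, with adjusted p = 0.745 for Npc1 and 0.813 for Becn1.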

How the results depend on the processing

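Across 18 alternatives, 20 of the 41 members kept the sign of their log2 fold change and 21 changed it at least once, in 69 of 736 values. The cause was not tested. With quantile normalization the value turned to -0.058 for Ctsf, -0.037 for Ctsh, -0.029 for Ctsz, -0.020 for Gaa and -0.020 for Glb1. With median-of-ratios scaling the value turned to -0.0043 for Lamp1, -0.062 for Ctsb, -0.020 for Ctsf, -0.080 for Ctsz, -0.070 for Gaa, -0.015 for Glb1 and -0.050 for Hexa. With TMM scaling the value turned to -0.050 for Ctsb, -0.0086 for Ctsf, -0.068 for Ctsz, -0.058 for Gaa, -0.0033 for Glb1 and -0.038 for Hexa. In edgeR's quasi-likelihood test the value turned to -0.0089 for Ctsb, -0.014 for Ctsf, -0.083 for Ctsz, -0.032 for Gaa, -0.0030 for Glb1 and -0.084 for Hexa. In DESeq2 the value turned to -0.0054 for Lamp1, -0.019 for Ctsb, -0.023 for Ctsf, -0.095 for Ctsz, -0.042 for Gaa, -0.014 for Glb1 and -0.095 for Hexa. With the replicate block the value turned to -0.0072 for Lamp1, -0.15 for Ctsb, -0.092 for Ctsf, -0.11 for Ctsh and -0.020 for Gaa. Leaving out each library in turn changed the sign of Tfeb (-0.57 to 0.060), Lamp1 (-0.0072 to 0.23), Lamp2 (-0.18 to 0.027), Ctsb (-0.15 to 0.25), Ctsd (-0.35 to 0.17), Ctsf (-0.092 to 0.31), Ctsh (-0.11 to 0.28), Ctsz (-0.10 to 0.14), Gaa (-0.10 to 0.16), Hexa (-0.19 to 0.29), Mcoln1 (-0.18 to 0.22), Scarb2 (-0.15 to 0.046), Becn1 (-0.042 to 0.33), Atg3 (-0.65 to 0.088), Atg5 (-0.23 to 0.016), Atg7 (-0.14 to 0.075), Map1lc3a (-0.27 to 0.47), Gabarap (-0.72 to 0.30), Gabarapl1 (-0.34 to 0.15) and Nbr1 (-0.22 to 0.042).

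The number of members higher at P under 0.01, 1 as reported, was 2 with a minimum mean of 1 CPM, in edgeR's exact test and in DESeq2 (beside 3.51%, 3.53% and 2.51% of all genes), 0 with quantile, median-of-ratios or TMM scaling (1.98% to 2.17%), and 0 to 2 with each library left out (2.13% to 2.88%). The number lower, 0 as reported by limma, was 0 to 1 with each library left out (0.816% to 1.41%). The number past P under 0.01 and 2-fold, 1 as reported, was 0 with no filter (0.635% of all genes), with the 3 scalings (1.32% to 1.35%) and at P under 0.001 (0.554%), and 0 to 2 with each library left out (1.09% to 1.72%). The number with an adjusted p under 0.05, 0 in limma (6 at an unadjusted P under 0.05), was 1 in edgeR's quasi-likelihood test, 1 in edgeR's exact test and 2 in DESeq2, where 1.51%, 2.37% and 3.39% of the genes given an adjusted p passed. The median log2 fold change of the members stayed between -0.02 and 0.18.

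Libraries with equal replicate numbers (1, 3 and 4) had deviations from their group means that correlated at 0.03, -0.33 and 0.09 across 12256 genes. These values give no sign of pairing by number, but whether the numbers mark shared cultures is not stated. The block was therefore kept as an alternative. With the replicate block, which drops EPS replicate 2, 2 members (Bnip3 and Ctsk) passed P under 0.05 beside 8.48% of all genes, and Ctsl, Tfe3, Ulk1 and Bnip3l did not. Low depth limits Ctsk and Ctss, which had at most 25 reads in a library.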
